A study of Homo sapiens with 12 samples.

Results

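The hairpin mir-423 gives 2 mature miRNAs, miR-423-5p from its 5′ arm and miR-423-3p from its 3′ arm (hsa-miR-423-5p and hsa-miR-423-3p in the table). Both were taken by name from the lines of that hairpin, so the members are 2 of the 1286 mature names in the deposited table, and both were counted in all 12 libraries. The cells were DROSHA knockouts of HCT116, a line of human colorectal carcinoma, and their small RNAs were sequenced. Every cell population received the plasmid pXC-NLS-DG4 (4.5 µg) and a pCK plasmid. The pCK plasmid coded for DROSHA with the belt deleted, for the DROSHA mutant m4 or for wild-type DROSHA (4.5 µg), or was empty, with 3 libraries for each. What m4 alters and what pXC-NLS-DG4 codes for are not given in the sources used here. The control thus lacks DROSHA but carries the second plasmid, and whether the knockout line is 1 clone is also not given. Nothing in the labels says that the numbered repeats are separate cultures, and p-values then measure only the spread between these libraries, which may be technical. The comparisons ask how much of each arm returns when DROSHA or a mutant is supplied, and whether both arms return in the same proportion.

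DROSHA is the nuclear RNase III enzyme that, with DGCR8, cuts the base of primary miRNA hairpins. DICER then removes the loop, and one strand of the resulting duplex is usually kept in an Argonaute protein while the other is lost. The ratio of the arms in a small RNA library therefore reflects which strand was kept as well as how reads were counted. miR-423-5p is known as a circulating marker in heart failure, and miR-423-3p has been studied as a miRNA that favours proliferation in carcinoma cells. In GENCODE release 29 the hairpin lies in NSRP1, the gene of a nuclear speckle splicing regulator, and on its strand. It starts 1558 bases after the annotated start of that gene, and exons of 3 of the 17 annotated NSRP1 transcripts overlap it, while in the others it is intronic or outside the transcript.

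The hairpin and its arms are printed because the arm values depend on how far these sequences can be told apart from those of mir-3184, a second hairpin annotated on the opposite strand of the same bases. All sequences are those of RefSeq on GRCh38.p14, 5′ to 3′. In the hairpins the capitals mark the mature arms. MIR423 lies on chromosome 17 (30117079 to 30117172, plus strand) and MIR3184 on chromosome 17 (30117086 to 30117160, minus strand).
MIR423: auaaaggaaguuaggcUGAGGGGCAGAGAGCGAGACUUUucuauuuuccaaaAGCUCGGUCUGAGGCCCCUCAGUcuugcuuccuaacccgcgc
MIR3184: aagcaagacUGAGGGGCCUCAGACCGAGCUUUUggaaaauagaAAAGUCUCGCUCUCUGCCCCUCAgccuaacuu
In the mature sequences the capitals mark the seed (bases 2 to 8), the stretch that pairs with target mRNAs.
miR-423-5p: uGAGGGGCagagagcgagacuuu
miR-423-3p: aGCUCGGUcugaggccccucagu
miR-3184-5p: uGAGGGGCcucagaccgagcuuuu
miR-3184-3p: aAAGUCUCgcucucugccccuca

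Both arms of mir-423 are 23 bases long. In the minimum free energy fold of the RefSeq hairpin (RNAfold, -48.8 kcal/mol over 94 bases) 17 of the 23 bases of the 5p arm pair with the 3p arm. The first base of the 5p arm pairs with base 73 of the hairpin, so the 3p arm, which ends at base 75, has an overhang of 2 bases, the kind of end that RNase III enzymes leave. The fold of MIR3184 reached -30.6 kcal/mol over its 75 bases. The seeds of the arms of mir-423 differ. Among the 2370 human mature names in the RefSeq sequences used here, the seed of miR-423-5p occurs in 2, itself and miR-3184-5p. The seed of miR-423-3p occurs in 1, itself. miR-423-5p and miR-3184-5p start with the same 8 bases although they come from opposite strands and opposite sides of the locus.

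**Figure D1:**
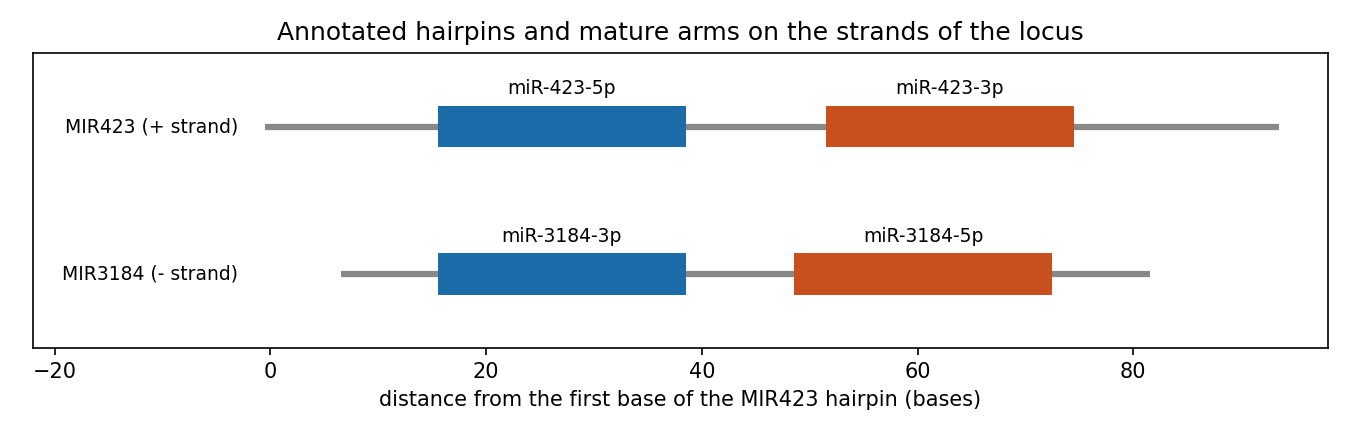
Positions of the MIR423 hairpin (plus strand, upper) and the MIR3184 hairpin (minus strand, lower), with their mature arms as bars, in bases from the first base of MIR423. miR-3184-3p covers the same 23 positions as miR-423-5p, and miR-3184-5p covers 21 of the 23 positions of miR-423-3p.

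miR-423-5p is the reverse complement of miR-3184-3p over 23 bases, and miR-423-3p that of miR-3184-5p over 21 bases. In the deposited table the lines of these pairs hold the same reads. miR-423-5p and miR-3184-3p had 1295 reads each over 12 libraries and did not differ in any library. miR-423-3p had 2562 reads and miR-3184-5p 2575, with a difference of at most 6 reads in a library. The use of strand in the counting is not stated, so reads from the strands of this locus cannot be told apart, and the values below are those of the locus, given under the names of mir-423. The same was seen at other loci with a hairpin on each strand. In 4 of 8 such loci at least 1 line of one hairpin held the same reads as a line of the other. Lines above 120 reads counted as the same if no library differed by more than 5 reads or 5%. Lines of 120 reads or fewer could not count. Among these, miR-374b-5p equalled miR-374c-3p (60 reads each) in every library. miR-338-3p likewise equalled miR-3065-5p (16 each), and miR-214-3p equalled miR-3120-5p (2 each). At the remaining locus miR-203a-3p (968 reads) and miR-203b-5p (1016) differed by at most 9 reads in a library.

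The table held 132667 to 407461 reads per library, with the lowest total in m4 replicate 1 and the next lowest in m4 replicate 3, and 649 to 800 names were detected after lines with the same reads were collapsed. Of 8 markers of intestinal epithelium, 8 had a read in at least 1 library and 6 in every library. Their summed level was 155 to 410 scaled reads with the belt deletion, 217 to 343 with m4, 178 to 272 with wild type and 88.3 to 132 with the empty plasmid. Of 10 markers of other cell types 7 had a read in at least 1 library, with summed levels of 573 to 802, 335 to 644, 486 to 711 and 218 to 296 in the same order of groups, and miR-124, miR-223 and miR-133a had none. Their part in the results was not tested. Scaled reads are counts divided by a size factor taken from miRNAs that mature without DROSHA, namely miR-484 (from a capped transcript), the mirtrons miR-1224, miR-1226 and miR-877, and miR-320. The most abundant of them, miR-320a-3p, averaged 69142 ± 6912 scaled reads with the belt deletion, 59513 ± 28154 with m4, 63039 ± 8268 with wild type and 81236 ± 12446 with the empty plasmid (SD, n = 3). Levels below are means ± SD with n = 3, changes are given on the log2 scale beside their standard error (SE), and a call is an adjusted p below 0.05 in edgeR's quasi-likelihood test over 318 miRNAs. The references did not all move alike. For the belt deletion against wild type they changed by 0.78 (miR-1224-5p, SE 0.31), 0.13 (miR-320a-3p, SE 0.34), 0.04 (miR-877-5p, SE 0.30), 0.00 (miR-1226-5p, SE 0.32) and -0.37 (miR-484, SE 0.30), without a call. That they stay at the same level per cell was assumed and was not tested. Each SE and p-value takes the size factors as known.

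miR-423-3p, the arm with more reads in 11 of the 12 libraries, was higher with each form of DROSHA than with the empty plasmid, and so was miR-423-5p. With wild type the 3p arm rose 9.50-fold and the 5p arm 2.96-fold. miR-423-3p had 512, 278 and 310 counts with wild type (replicates 1, 2 and 3), against 57, 83 and 79 counts with the empty plasmid. In scaled reads these were 609, 500.1 and 349 with wild type, against 42.9, 57.7 and 52.5 with the empty plasmid. Each wild-type library lay above each empty one, and the spread was wider with wild type (486 ± 130.3) than with the empty plasmid (51.0 ± 7.53). The log2 change was 3.25 (SE 0.35, adjusted p = 6.18e-13 in edgeR's test). miR-423-5p had 103, 92 and 131 counts with wild type, against 46, 100 and 64 counts with the empty plasmid. The raw counts overlapped, whereas the scaled reads did not: 122, 165 and 148 with wild type, against 34.6, 69.5 and 42.5 with the empty plasmid. The log2 change was 1.57 (SE 0.36, adjusted p = 0.000122 in edgeR's test), from means of 145 ± 21.6 with wild type and 48.9 ± 18.3 with the empty plasmid. Both arms were thus called higher, as were 44.7% of the 318 miRNAs tested, and for both the groups did not overlap, as for 53.1% of all tested. These sizes depend on the scaling: over 6 scalings the 3p change ran from 2.36 (TMM) to 3.61 (sum of the reference) and the 5p change from 0.69 to 1.90 in the same scalings. Under total-count scaling the call of the 5p arm was lost (0.72, adjusted p = 0.0856). Per library these are averages over transfected and untransfected cells, so more mature miRNA per cell and more cells that made it cannot be told apart.

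**Figure D2:**
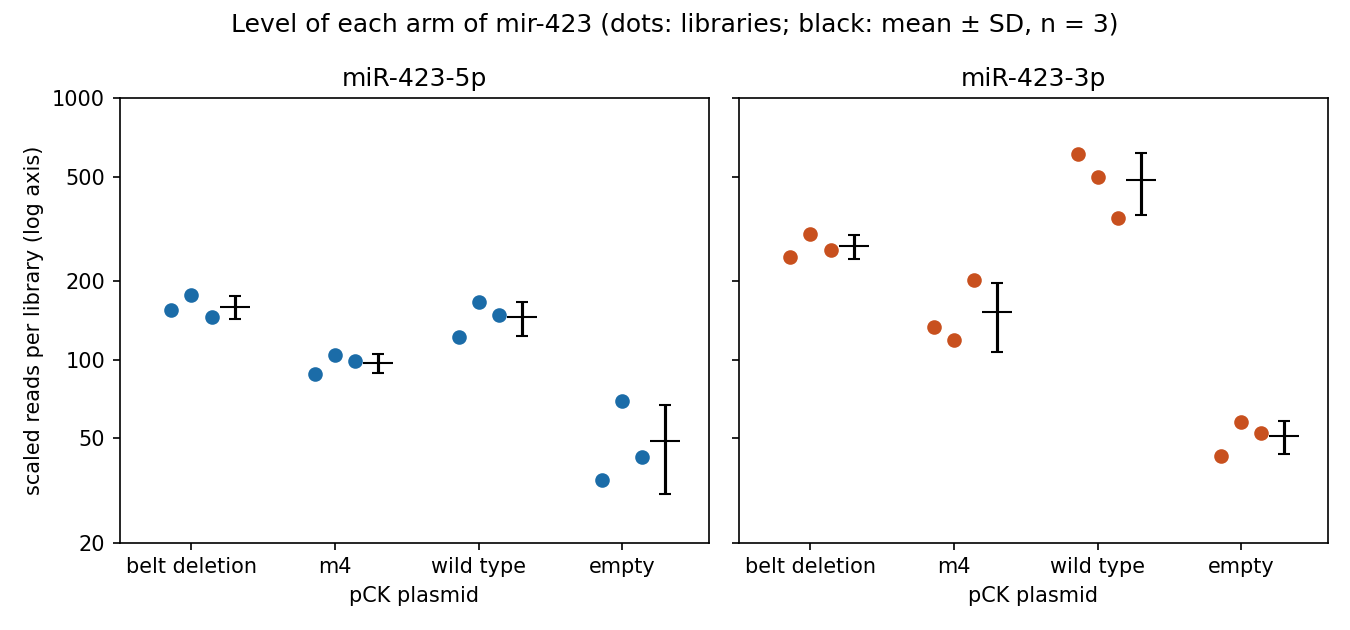
Scaled reads (log axis) of miR-423-5p (left) and miR-423-3p (right) in each library, by pCK plasmid, with the mean ± SD (n = 3) in black. The 3p arm averaged 271 scaled reads with the belt deletion and 486 with wild type, whereas the 5p arm averaged 158.9 with the belt deletion and 145 with wild type.

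With the m4 mutant both arms were also higher than with the empty plasmid. miR-423-3p had 124, 129 and 158 counts with m4, or 133, 119 and 202 scaled reads, all above the empty libraries. Its level of 151 ± 44.5 with m4, against 51.0 ± 7.53 with the empty plasmid, was 2.96-fold higher (log2 1.57, SE 0.33, adjusted p = 8.26e-05 in edgeR's test). miR-423-5p had 82, 113 and 77 counts with m4, or 88.0, 104 and 98.5 scaled reads, again above the empty libraries. It was 1.98-fold higher with m4 than with the empty plasmid (log2 0.99, SE 0.36, adjusted p = 0.0202), with means of 97.0 ± 8.31 and 48.9 ± 18.3. Among all miRNAs tested, 40.9% were called higher with m4, and for 46.5% the groups did not overlap. The call of the 5p arm did not hold without empty replicate 1 (0.79, adjusted p = 0.137), without empty replicate 3 (0.89, adjusted p = 0.0980) or without m4 replicate 2 (0.93, adjusted p = 0.0510). It was also lost under TMM scaling (0.34, adjusted p = 0.392) and DESeq2 size factors (0.52, adjusted p = 0.172). Over 6 scalings the 3p change with m4 ran from 0.89 to 2.19 and the 5p change from 0.34 to 1.49.

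With the belt deletion both arms were higher than with the empty plasmid. miR-423-5p had 176, 141 and 170 counts with the belt deletion, its highest raw values in the series, or 155, 177 and 145 scaled reads. It averaged 158.9 ± 16.3 with the belt deletion and 48.9 ± 18.3 with the empty plasmid, a rise of 3.24-fold and a log2 change of 1.70 (SE 0.36, adjusted p = 4.05e-05 in edgeR's test). miR-423-3p had 281, 242 and 309 counts with the belt deletion, or 247, 303 and 264 scaled reads, and the 3 libraries lay close together. It averaged 271 ± 28.9 with the belt deletion and 51.0 ± 7.53 with the empty plasmid, a rise of 5.31-fold and a log2 change of 2.41 (SE 0.34, adjusted p = 4.66e-09). For both arms the groups did not overlap, as for 51.3% of all tested, and 44.3% of all tested were called higher. Over 6 scalings the 3p change ran from 1.60 to 2.61 and the 5p change from 0.86 to 1.86, the lowest under total-count scaling, where the 5p arm was not called (adjusted p = 0.0559).

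Against wild type, 1 of the 4 changes of the arms with the mutants was called, that of miR-423-3p with m4. miR-423-3p was lower with m4 (151 ± 44.5) than with wild type (486 ± 130.3), by 1.68 on the log2 scale or 3.21-fold. The value was -1.68 (SE 0.33, adjusted p = 1.88e-05 in edgeR's test), every m4 library lay below every wild-type library, and 35.8% of all tested were called lower. miR-423-5p, with 97.0 ± 8.31 scaled reads with m4 and 145 ± 21.6 with wild type, was not called (-0.58, SE 0.35, adjusted p = 0.196). Its groups did not overlap, as for 43.4% of all tested, but under total-count scaling its value turned positive (0.43, adjusted p = 0.310), and that of the 3p arm was -0.58 and not called (adjusted p = 0.132).

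For the belt deletion against wild type, miR-423-3p stood at 271 ± 28.9 with the belt deletion and 486 ± 130.3 with wild type. The 3 belt deletion libraries lay below the 3 wild-type libraries (32.4% of all tested did not overlap), but the change of -0.84 (SE 0.32) was not called, with an adjusted p = 0.0772 in edgeR's test, where 12.6% of all tested were called in either direction, 3.14% higher and 9.43% lower. It was called under TMM scaling (-0.71, adjusted p = 0.0417), DESeq2 size factors (-0.82, adjusted p = 0.0165), a reference without miR-320 (-0.87, adjusted p = 0.0431) and by DESeq2's test (-0.84, adjusted p = 0.0395). It was called as well without wild type replicate 3 (-1.03, adjusted p = 0.0259). miR-423-5p overlapped between the belt deletion (158.9 ± 16.3) and wild type (145 ± 21.6), with a change of 0.13 (SE 0.35, adjusted p = 0.846), which was -0.04 when the reference reads were summed.

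Between the mutants, miR-423-3p averaged 271 ± 28.9 with the belt deletion and 151 ± 44.5 with m4, a 1.79-fold difference and a log2 change of 0.84 (SE 0.33) called with an adjusted p = 0.0425 in edgeR's test, as were 26.4% of all tested in that direction. The call ended without either m4 replicate 1 (0.76, adjusted p = 0.118) or 2 (0.70, adjusted p = 0.187). It also ended without belt deletion replicate 1 (0.91, adjusted p = 0.0694), 2 (0.76, adjusted p = 0.132) or 3 (0.86, adjusted p = 0.0781), with the sum of the reference (0.42, adjusted p = 0.565) and with the replicate number as a block (0.84, adjusted p = 0.0687), and under total-count scaling the value was -0.21 (adjusted p = 0.609). miR-423-5p was at 158.9 ± 16.3 with the belt deletion and 97.0 ± 8.31 with m4, without a call (0.71, SE 0.35, adjusted p = 0.150), and at -0.29 under total-count scaling. For both arms the libraries of these groups did not overlap, as for 36.2% of all tested. In rising order of level the 3p arm ran empty, m4, belt deletion and wild type, and the last pair was not told apart by edgeR's test. For the 5p arm the empty plasmid and m4 came first and wild type and belt deletion last. No pair among m4, wild type and the belt deletion was told apart for this arm by that test.

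**Figure D3:**
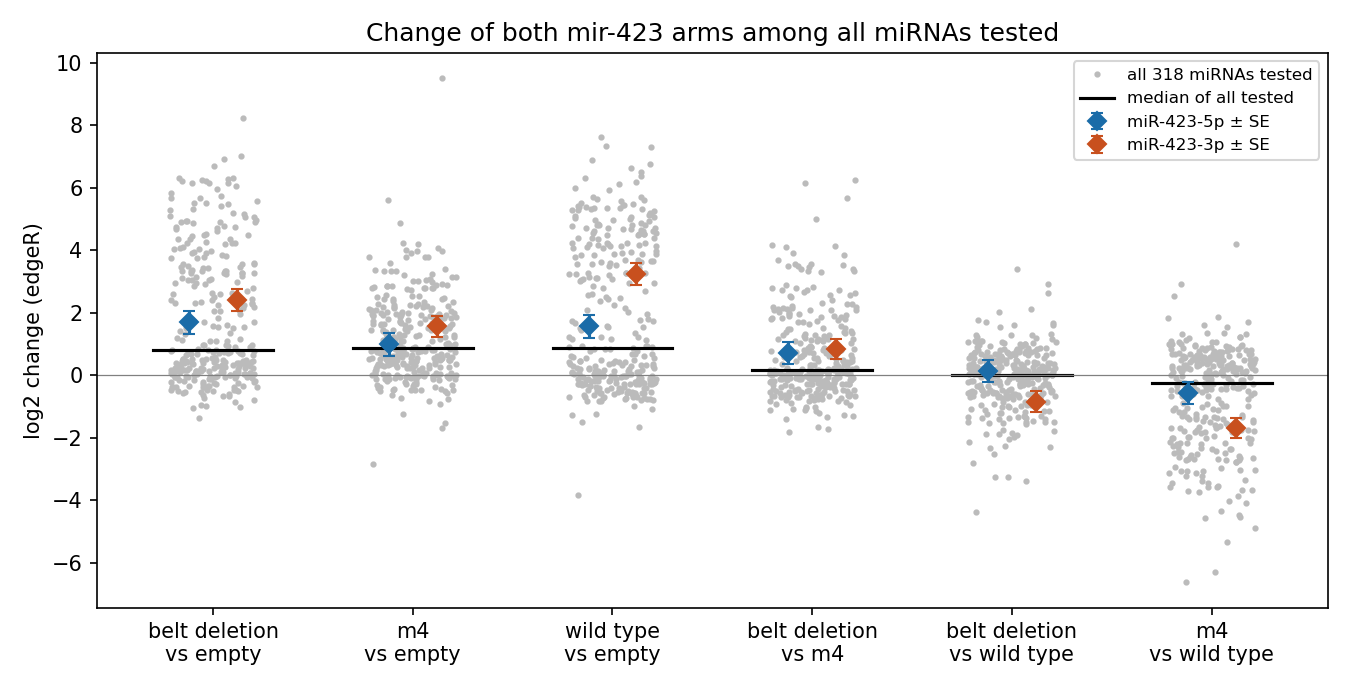
Log2 changes (edgeR) of all 318 miRNAs tested (grey), with their median as a black line, and of miR-423-5p and miR-423-3p (diamonds ± SE), in 6 comparisons. In wild type against empty the 3p arm lies 2.39 above the median and the 5p arm 0.71 above it, and in belt deletion against wild type they lie 0.87 below and 0.11 above it.

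Among the 318 miRNAs tested, the arms ranked higher by level than by change. By mean level miR-423-3p ranked 48 of 318 with the belt deletion, 46 with m4, 40 with wild type and 61 with the empty plasmid. miR-423-5p ranked 63, 66, 73 and 64 in the same order of groups. By change with wild type against empty, miR-423-3p ranked 111 and miR-423-5p 142 of 318 from the largest rise. The median change of all tested was 0.86 for wild type against empty, 0.86 for m4 against empty and 0.80 for the belt deletion against empty. Relative to those medians miR-423-3p was at 2.39, 0.70 and 1.61, and miR-423-5p at 0.71, 0.13 and 0.90. These relative values depended little on the scaling: with wild type they ran from 2.37 to 2.49 for the 3p arm and from 0.65 to 0.82 for the 5p arm over 6 scalings, while total-count scaling moved the median itself by -0.95. For m4 against wild type the relative values were -1.43 for the 3p arm and -0.33 for the 5p arm, and total-count scaling gave -1.43 and -0.43 with a median moved by 1.11. For the belt deletion against m4 they were 0.68 and 0.55, and total-count scaling gave 0.65 and 0.56 with a median moved by -1.02.

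The ratio of the arms is taken within a library and needs no scaling. The 3p arm held a larger share of the reads of mir-423 with wild type than with the empty plasmid, and the mean shares with both mutants lay between these. With the belt deletion the 3p share was 61.5% of 457 reads (95% Wilson interval 56.9 to 65.8), 63.2% of 383 (58.2 to 67.9) and 64.5% of 479 (60.1 to 68.7). With m4 it was 60.2% of 206 reads (53.4 to 66.6), 53.3% of 242 (47.0 to 59.5) and 67.2% of 235 (61.0 to 72.9). With wild type it was 83.3% of 615 reads (80.1 to 86.0), 75.1% of 370 (70.5 to 79.3) and 70.3% of 441 (65.9 to 74.4). With the empty plasmid it was 55.3% of 103 reads (45.7 to 64.6), 45.4% of 183 (38.3 to 52.6) and 55.2% of 143 (47.1 to 63.2). The intervals treat each read as independent, although PCR copies are not independent molecules, so they may be too narrow. The intervals of m4 replicates 2 and 3 were separate, as were those of wild type replicate 1 from both others. These libraries thus differed by more than the counting error of independent reads. Whether they differed by more than that of molecules cannot be told. The belt deletion libraries lay within each other's intervals.

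**Figure D4:**
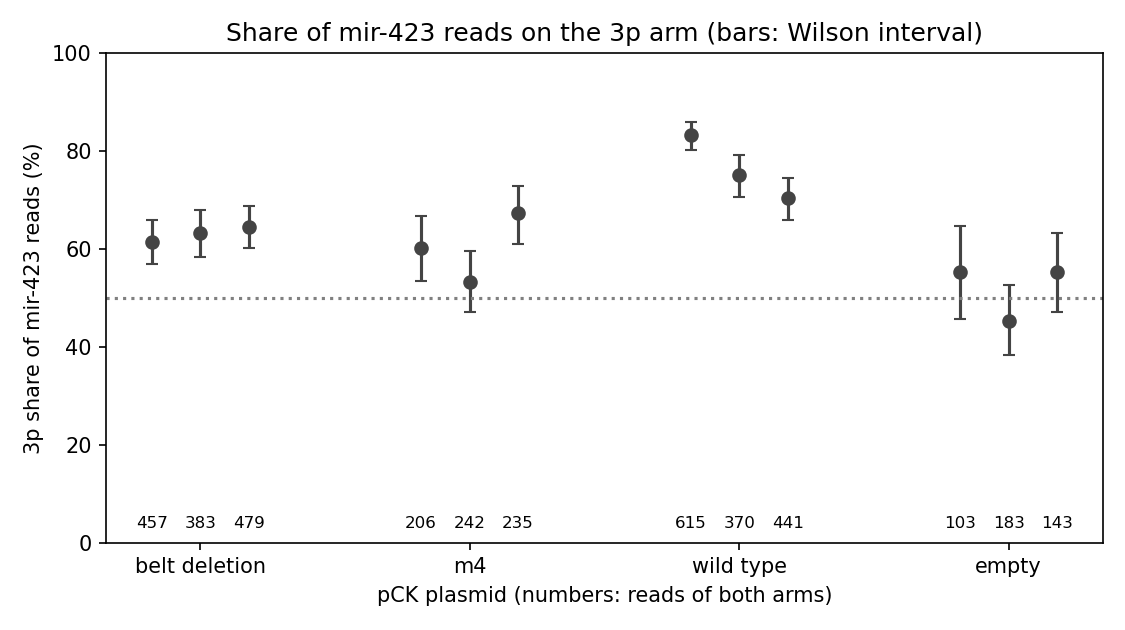
Share of mir-423 reads on the 3p arm (%) in each library, with 95% Wilson intervals and the number of reads of both arms below each point. The wild-type libraries lie at 70.3 to 83.3%, above the 9 others, of which the highest is 67.2% (m4 replicate 3).

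The mean 3p share was 63.1% ± 1.51 with the belt deletion, 60.2% ± 6.96 with m4, 76.2% ± 6.55 with wild type and 52.0% ± 5.74 with the empty plasmid (SD, n = 3). The log2 ratio of 5p to 3p reads averaged -0.77 ± 0.09, -0.61 ± 0.42, -1.71 ± 0.54 and -0.11 ± 0.33 in the same order. In a limma fit over 15 hairpins with enough reads on both arms, the ratio changed with wild type against empty by -1.60 (SE 0.44, adjusted p = 0.0157), that is, the 3p arm gained 3.03-fold on the 5p arm. In that comparison 13.3% of the hairpins were called. The call ended without wild type replicate 1 (-1.30, adjusted p = 0.0930), the library with the highest 3p share, and without empty replicate 2 (-1.41, adjusted p = 0.0879), the library with the lowest. The change was not called for the belt deletion against empty (-0.66, adjusted p = 0.378) or for m4 against empty (-0.49, adjusted p = 0.591) by limma, where 26.7% of hairpins were called in each. It was likewise not called for m4 against wild type (1.11, adjusted p = 0.200, 0% of hairpins called) or the belt deletion against wild type (0.94, adjusted p = 0.147, 6.67% called), although the groups did not overlap, as for 13.3% and 46.7% of hairpins in those comparisons. Nor did they overlap for the belt deletion against empty (40% of hairpins) or for wild type against empty (26.7%), while they did for m4 against empty (26.7% of hairpins without overlap). The mutants differed from each other by -0.16 (belt deletion against m4, adjusted p = 0.819, 0% called) and overlapped, where 13.3% of hairpins did not. Each of the 6 changes over all libraries has an SE of 0.44. Where limma called 0 of 15 hairpins, 2 (m4 against wild type) and 3 (belt deletion against m4) had an unadjusted p below 0.05, and edgeR's interaction test called 0 and 1.

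Exact permutation tests over libraries were run for both levels and the ratio in the 6 comparisons, 18 in all. The two-sided p was 0.1 wherever the groups did not overlap, the lower limit for 3 libraries against 3, and 0.12 after Benjamini-Hochberg adjustment over the 18. In order of the ratio's change with wild type against empty, mir-423 came second of the 15 hairpins. Before it stood mir-222, a hairpin of a growth-promoting pair with mir-221, with a change of -3.25 and a 3p share of 98.6% ± 0.508 with wild type and 88.1% ± 3.88 with the empty plasmid (SD, n = 3). After it stood mir-664a, at -1.16 without a call by limma (adjusted p = 0.153), with shares of 66.9% ± 9.78 with wild type and 47.8% ± 6.59 with the empty plasmid. For mir-222 the ratio was called by limma also with m4 (-2.85, adjusted p = 0.00181) and with the belt deletion (-3.17, adjusted p = 0.000298) against empty.

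Many miRNA hairpins lie in introns of protein-coding genes. For mir-423 this holds in part, since it overlaps exons of 3 of the 17 annotated NSRP1 transcripts. A list of intronic hairpins was used for comparison. Of its 42 hairpin genes 38 had a position in the RefSeq sequences used here. All 38 lay within a protein-coding gene on their own strand in GENCODE release 29, with 2 of them (mir-330 and mir-628) overlapping an exon of 1 transcript each. For mir-93, mir-28, mir-151a and mir-501 no position was at hand, so their hosts were not checked. Their names among the 31 described below are miR-93-5p, miR-28-3p, miR-28-5p, miR-151a-3p and miR-151a-5p. After names with equal lines were merged, the list had 75 mature names, of which 31 passed the filter on low counts. A miRNA can pass this filter through the group where it is high, so the counts describe only these 31. Names low in every group were left out, which favours names that rise against empty. Some of the 31 had few reads in the empty libraries (miR-140-5p, mean 0.23 scaled reads), others many (miR-151a-3p, 165). How far the filter shaped the counts, the medians and the place of the mir-423 arms among the 31 was not tested. miR-103a-3p (2669 reads) is on the list but is not among the 31, because its reads were merged under the name miR-103b. For miR-16-5p only the SMC4 copy of the hairpin is listed, and its reads cannot be assigned to a copy. With wild type against empty 31 of 31 rose, against 44.7% of all 318 tested, with a median change of 4.40, against 0.86 over all tested. Each of the 31 had a larger value than miR-423-5p (1.57), and 24 had a larger value than miR-423-3p (3.25). The nearest to miR-423-5p was miR-16-2-3p (1.74), the passenger arm of an SMC4 intron hairpin. With m4 against empty 27 of 31 rose (40.9% of all tested; median 2.06, all tested 0.86), and with the belt deletion against empty 30 of 31 (44.3% of all tested; median 3.58, all tested 0.80). In these comparisons 29 and 28 of the 31 were above miR-423-5p, and 19 and 23 above miR-423-3p. With m4 against wild type 27 of 31 fell (35.8% of all tested; median -2.16, all tested -0.25), and 1 of 31 was above miR-423-5p. With the belt deletion against wild type 2 rose and 6 fell (3.14% and 9.43% of all tested; median -0.57, all tested 0.02), and with the belt deletion against m4 17 rose (26.4% of all tested; median 1.49, all tested 0.16). No median of the list, of which 30 or 31 were tested, changed sign under 5 other scalings, but some counts did move. For m4 against empty 18 rose under TMM, for m4 against wild type 16 fell under total-count scaling, and for the belt deletion against m4 10 rose with the sum of the reference, and 9 rose and 3 fell under total-count scaling.

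**Figure D5:**
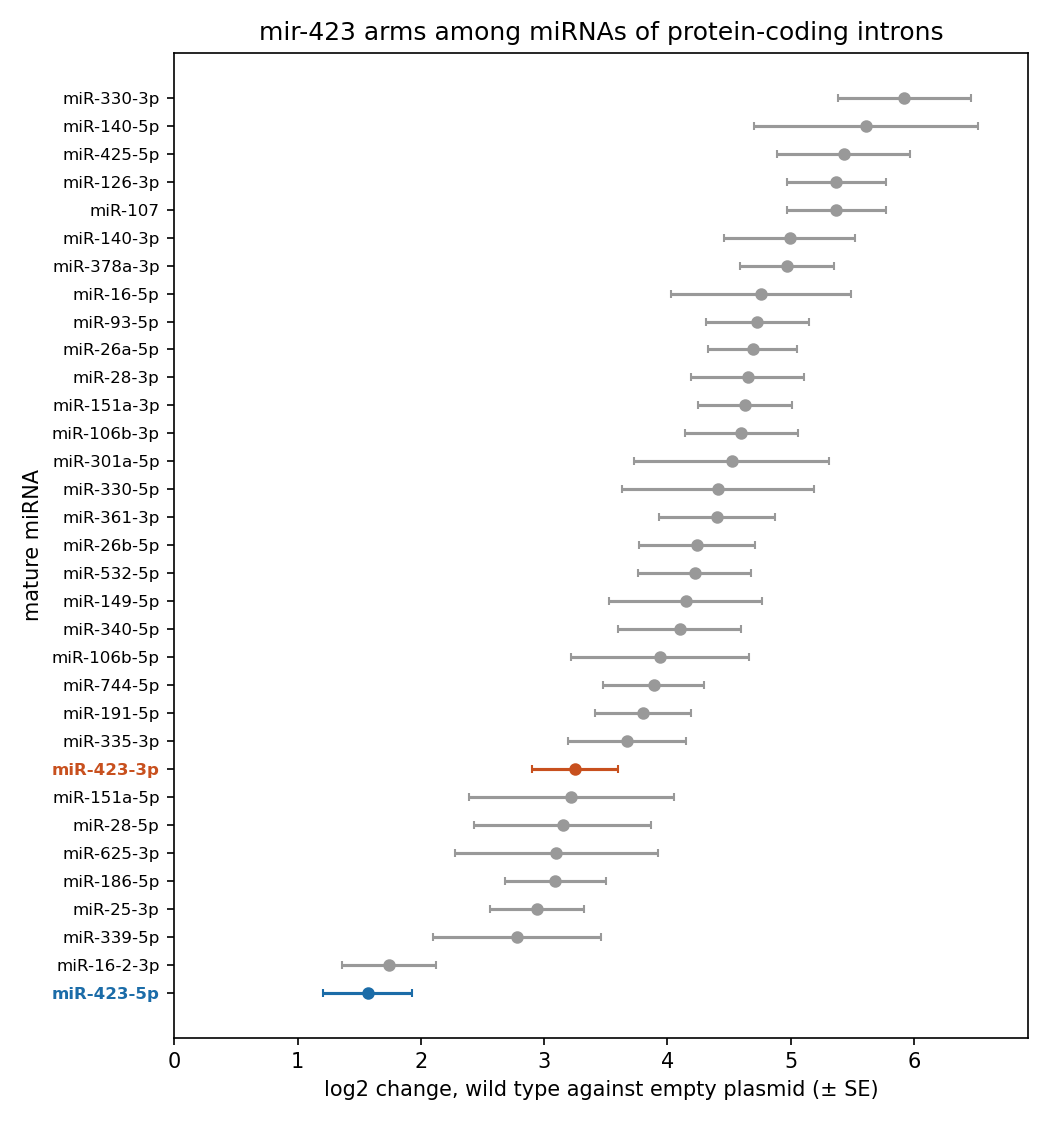
Log2 change (± SE) with wild type against the empty plasmid for 31 mature miRNAs (grey) and both arms of mir-423 (coloured). The grey ones are names of hairpins listed as lying in introns of protein-coding genes. For miR-16-5p only the SMC4 copy is listed, and its reads cannot be assigned to a copy. The hairpin of miR-330-3p and miR-330-5p also overlaps an exon, and mir-423 overlaps exons of 3 NSRP1 transcripts. miR-423-5p has the smallest value shown (1.57), and miR-423-3p (3.25) lies below 24 of the 31. Names low in every group were filtered out, which favours names that rise.

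The 3 most abundant of the list with wild type give the scale. miR-151a-3p averaged 1579 ± 622 scaled reads with the belt deletion, 373 ± 111 with m4, 4078 ± 1170.0 with wild type and 165 ± 24.5 with the empty plasmid. miR-378a-3p, from PPARGC1B, averaged 1451 ± 263, 129.6 ± 35.3, 1499 ± 475 and 47.8 ± 8.38 in the same order. miR-26a-5p, made from introns of CTDSPL and CTDSP2, averaged 992 ± 49.0, 143 ± 33.7, 1252 ± 288 and 48.3 ± 6.46. With the empty plasmid these 3 stood at 165, 47.8 and 48.3 scaled reads, close to the arms of mir-423 or above them, while with wild type each exceeded both arms. Of the 14 DROSHA-independent miRNAs tested, which include those that set the scaling and are drawn toward 0 by it, the median change with wild type against empty was -0.33. None of the 14 was called with wild type, where 44.7% of all tested were called higher. With m4 against empty 2 were called higher (40.9% of all tested), miR-320d (2.15) and miR-1229-3p (1.16). With the belt deletion against empty 1 was called higher (44.3% of all tested), miR-320d (2.39).

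The miRNAs nearest in pattern to each arm were found by the root mean square difference of centred log2 scaled reads over the 12 libraries. Centring removes the level, so only the pattern over libraries was compared. The search covered the 104 other miRNAs with a mean of 50 reads or more, without the DROSHA-independent ones. For miR-423-3p the nearest were let-7a-5p (0.32), miR-25-3p (0.38), miR-191-5p (0.42), let-7b-5p (0.44) and miR-92a-3p (0.45). let-7a-5p, a repressor of LIN28 and RAS mRNAs, averaged 817 ± 53.2 scaled reads with the belt deletion, 442 ± 99.9 with m4, 1003 ± 101 with wild type and 119 ± 18.2 with the empty plasmid. Its changes against empty were 2.78 (belt deletion), 1.89 (m4) and 3.07 (wild type), beside 2.41, 1.57 and 3.25 for miR-423-3p. For miR-423-5p the nearest were miR-16-2-3p (0.38), miR-9-5p (0.48), let-7a-5p (0.58), miR-423-3p (0.66) and miR-573 (0.67). miR-16-2-3p averaged 63.7 ± 5.46 with the belt deletion, 60.1 ± 5.91 with m4, 95.0 ± 25.4 with wild type and 28.2 ± 10.1 with the empty plasmid. The other arm of the same hairpin was thus 4 in the order from miR-423-5p, and miR-423-5p was 18 in the order from miR-423-3p.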

How the data were processed

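The authors deposited unnormalized counts for 12 libraries, 1 line for each mature miRNA of each hairpin. cutadapt, Bowtie2 and the build hg38 are named in the submitters' processing notes. The versions, the counter, the annotation and the use of strand are not given in the sources used here. Blank cells (42.7%; none is 0) were read as 0. Per the labels' protocols, 10 µg of total RNA was size-selected to 19 to 24 nt. Where a mature name had several lines, its highest line was kept, and 9 pairs of names with equal lines were made 1 (differences of at most 5 reads or 5% per library, over 120 reads), which left 1277 names and 101886 to 332081 reads per library. Size factors were median ratios over 5 DROSHA-independent features, none under 20 reads in a library. Levels were tested with edgeR 4.0.16 (robust quasi-likelihood, filterByExpr, 1 fit of 12 libraries, R 4.3.3), arm ratios with limma 3.58.1 on log2 ratios with a pseudocount of 0.5, over hairpins with at least 50 reads in every library and a mean of 5 per arm. p-values were adjusted by Benjamini-Hochberg over all miRNAs or hairpins tested. The SE of an edgeR change was derived from its F statistic (change over root F). DESeq2 1.42.0 was an alternative, and hairpins were folded with RNAfold 2.7.2. The fits were also run on simulated data. The simulated levels had a fixed dispersion and known size factors, so that run could not check the scaling or the calls given here. No replicate pair agreed within sampling noise (chi-square 10.49 to 83.2 per degree of freedom). Named miRNAs, beside both arms and miR-320a-3p, are the 5 nearest in pattern to each arm, the 3 most abundant intronic ones, those that share a seed, and the neighbours in arm ratio. The members and lists were chosen with earlier results of these data known.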

Additional observations from a re-analysis of the deposited data

How the results depend on the processing

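For 18 values (2 levels and the arm ratio in 6 comparisons) the alternative fits gave 270 values, of which 240 kept direction and side of the threshold. Many of the 270 were read from the same fit, so they are not separate analyses. Under total-count scaling the 5p level was at 0.72 (wild type against empty), 0.86 (belt deletion against empty), 0.43 (m4 against wild type) and -0.29 (belt deletion against m4), and the 3p level at -0.58 (m4 against wild type) and -0.21 (belt deletion against m4). For m4 against empty the 5p level lost its call under TMM (0.34), DESeq2 size factors (0.52) and no filter (0.99, adjusted p = 0.0670). The sum of the reference gave -0.04 for the 5p level (belt deletion against wild type) and 0.42 for the 3p level (belt deletion against m4), which lost its call. The 3p level in belt deletion against wild type was called under TMM (-0.71), DESeq2 size factors (-0.82), the reference without miR-320 (-0.87) and DESeq2's test (-0.84). The 3p call in belt deletion against m4 was lost without a filter (0.84, adjusted p = 0.174), with only the 6 libraries compared (0.84, adjusted p = 0.0604) and with the replicate number as a block (0.84, adjusted p = 0.0687). The filter alternative tests more miRNAs; the cause of the other losses was not tested.

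Leaving out 1 library gave ranges of 0.79 to 1.33 (5p level, m4 against empty), -1.03 to -0.64 (3p level, belt deletion against wild type), 0.70 to 1.10 (3p level, belt deletion against m4), -1.84 to -1.30 (arm ratio, wild type against empty) and -0.38 to 0.04 (arm ratio, belt deletion against m4, positive without m4 replicate 2). Where this left 2 libraries in a group, the spread was shared with the other groups. The arm ratio with wild type against empty stayed called with a pseudocount of 0.1, with the lines of mir-3184, by edgeR's interaction test (-1.61, adjusted p = 0.0427), over 9 hairpins with at least 100 reads and, in a looser filter chosen after seeing the data, over 34 hairpins (adjusted p = 0.0225 in limma). The block changed no other call. No pairing by replicate number was seen. Same-numbered libraries correlated at -0.25 to 0.15 in their deviations, others at -0.26 to 0.40, and 0 of 12 correlated best with its own number. A shared effect smaller than the spread between libraries would not show in this way. Counting error is widest in the empty libraries, with 103 to 183 reads of mir-423; the shallowest libraries are m4 replicates 1 and 3.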
